A study of Rattus norvegicus with 3 samples.

Results

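Cadherins, protocadherins and catenins were followed in the cell-free RNA of rat spinal cord, that is, RNA in the fluid left once a cold-active protease had loosened the tissue and the cells had been spun out. The members were every gene of the deposited table whose symbol begins with CDH and a number, CDHR, PCDH, CTNNA or CTNND, together with the FAT, DCHS1, CELSR and CLSTN genes, PKP2, PKP4 and JUP. They came to 30 of the 12758 gene symbols of the table. The rule would take 100 protein-coding genes of the rat RefSeq annotation (GRCr8), and the other 70 were not analysed here.

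The animals were female Sprague Dawley rats, 3 months old. No-SCI rats had a laminectomy at T9 alone, and SCI rats had the same laminectomy followed by a contusion. Tissue just rostral of the lesion was taken after 24 h, digested at 6°C in both groups, and the supernatant was sequenced as total RNA without its ribosomal RNA. By the labels there were 2 libraries of No-SCI rats and 1 of SCI rats, while the methods of the study state 2 animals per condition. Expression is given in FPKM, fragments per kilobase of transcript scaled to the mapped reads, as 1 value of the authors per group and gene. The methods state that reads of every library were reduced to the number in the smallest, so the libraries entered at equal depth, but the table gives no read count behind a value. It also gives no value for a library, so the spread between animals is unknown, no test could be run, and no difference below can be set against replicate error. Log2 ratios set SCI over No-SCI with nothing added to the values, and a difference of at least 2-fold (a log2 ratio of at least 1 in size) was counted as a rule of size.

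Cadherins are calcium-dependent adhesion molecules that bind their own kind across the gap between cells. The tail of a classical cadherin holds beta-catenin or plakoglobin, which carry alpha-catenin and through it actin, while p120-type catenins keep the cadherin at the surface. Protocadherins have cadherin repeats but a different tail, and in neurons they take part in synapse formation and in the recognition of a neuron's own branches. Atypical cadherins of the FAT, DCHS and CELSR type orient cells within tissue, and calsyntenins are cadherin-like cargo adaptors of axonal transport and synaptic adhesion proteins.

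After SCI 27 of the 30 members had a lower value than in No-SCI. The 3 with a higher value were CDH5, CDH1 and JUP. At least 2-fold lower were 9 members (30%), namely CTNNA2, CDHR2, PCDH17, PCDH7, CDH20, CLSTN3, CTNND1, FAT1 and PKP4, against 12.1% of all symbols. At least 2-fold higher was 1 member, CDH5, against 7.93% of all symbols. The median log2 ratio was −0.74 over the members and −0.12 over all symbols. A lower value by any amount was found in 56.4% of all symbols. At a fold of 1.5, 21 members were lower against 26.3% of all symbols and 2 were higher, CDH5 and CDH1, against 16.9%.

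**Figure D1:**
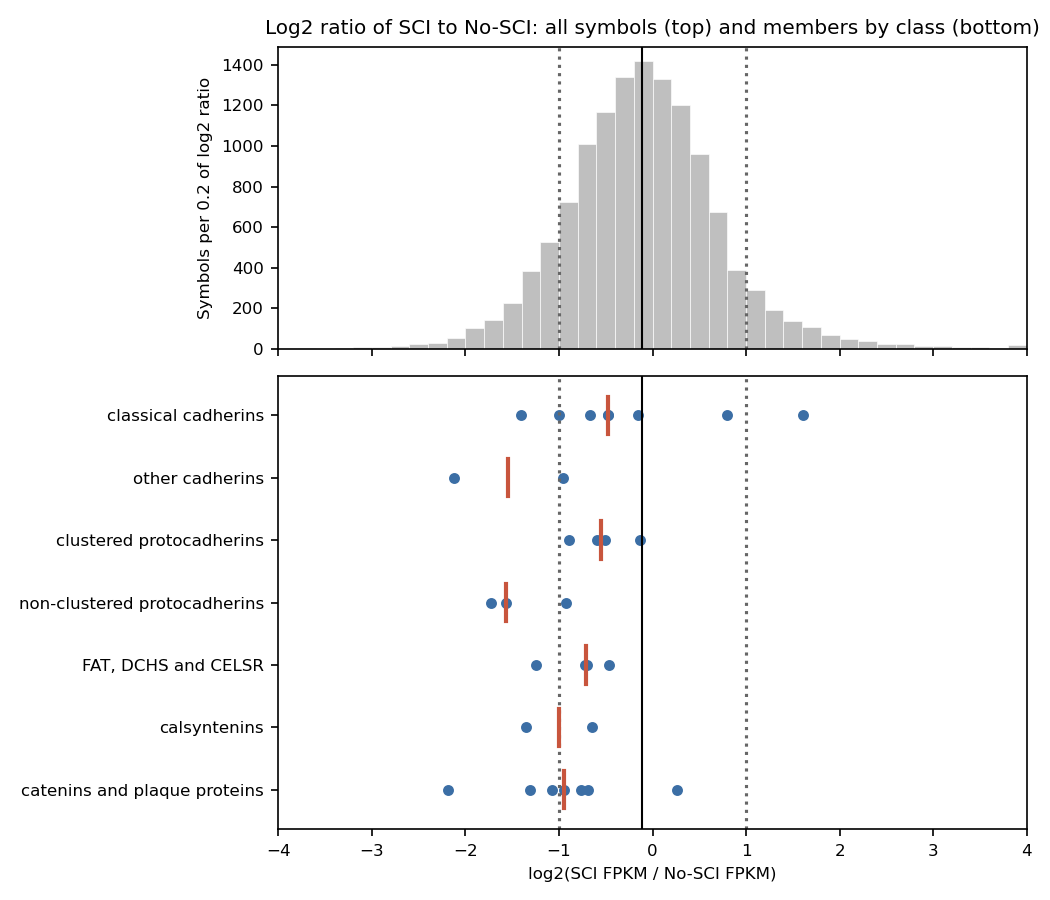
The top panel counts all 12758 symbols by their log2 ratio of SCI to No-SCI, with values beyond 4 in size placed in the end bins. The bottom panel shows 30 members as points by class, with the class median as a red bar, the median of all symbols as a solid line and 2-fold as dotted lines, and the class medians lie left of the median of all symbols.

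The share of symbols past 2-fold depends on level, so the members were also read at their own levels. Among symbols with a mean of 5 to 20 FPKM over both groups, 14.2% were at least 2-fold lower after SCI, and 5 of 11 members were. At a mean of 2 to 5 FPKM the figures were 13.8% of symbols and 2 of 9 members. At 20 to 100 FPKM they were 11.6% of symbols and 0 of 2 members. At 100 FPKM and above they were 8.43% of symbols and 2 of 3 members. Under 2 FPKM 4.35% of symbols and 0 of 5 members were at least 2-fold lower, and no value of the table lies below 1, so ratios there are compressed if a constant was added. These values describe the table and are no test, since genes are not animals.

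The median of all symbols, −0.12, can be set at 0 by moving every log2 ratio up by its size. The share of all symbols at least 2-fold higher and lower, 7.93% and 12.1% as deposited, then becomes 9.53% and 9.59%. Under that centring 8 members were at least 2-fold lower, 1 was at least 2-fold higher, and 27 members were below 0. PKP4 is the member that leaves the 2-fold group. The members nearest the 2-fold line as deposited were PKP4 inside it, 2.11-fold lower, and CDH10, CDH13 and CTNND2 outside it, 1.996-fold, 1.94-fold and 1.93-fold lower.

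In No-SCI the cytoplasmic partners were more abundant than the surface molecules, though CTNNAL1 (17.7 FPKM) was close to CDHR2 (16.5 FPKM). Each of the 7 catenins and plaque proteins was above the median of all symbols in No-SCI (17.2 FPKM), and none of the 23 other members was. After SCI 5 members, all of the catenin and plaque class, were above that median (15.6 FPKM). CDH5 at 11.7 FPKM was then above CTNNAL1 at 10.4 FPKM and CTNNA2 at 5.19 FPKM. The median level of the catenin and plaque class was 77.3 FPKM in No-SCI against 58.1 FPKM after SCI. That of the classical cadherins was 3.42 and 2.32 FPKM, and that of the clustered protocadherins 1.56 and 1.22 FPKM. A value with at least 7 significant digits stands in 1 or both groups for 24 of the 30 members (80%) and for 58.6% of all symbols, and whether such values were added up from several transcripts is not given in the sources used here.

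**Figure D2:**
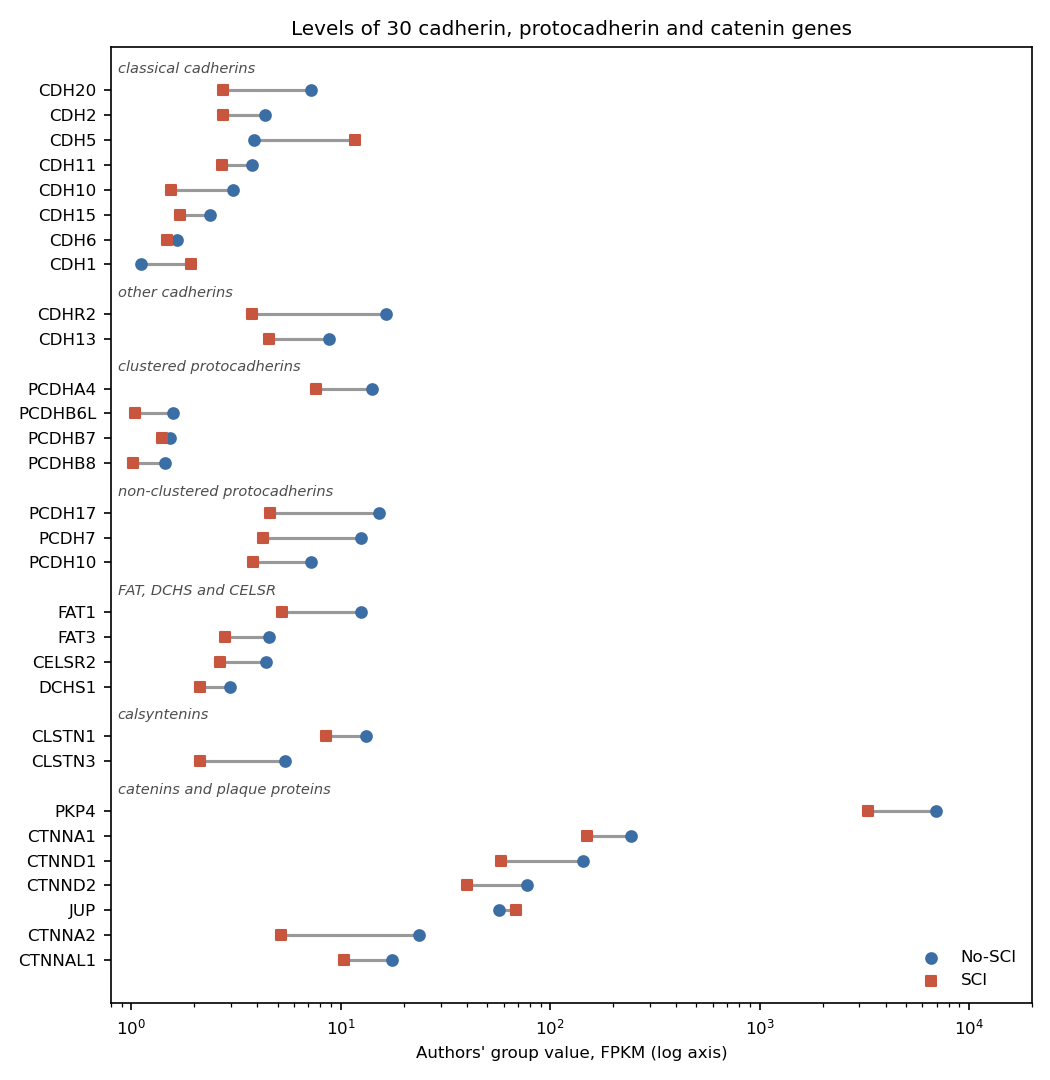
Authors' FPKM value of each member in No-SCI (blue circles) and SCI (red squares) on a log axis, grouped by class, with a grey line joining both groups. PKP4 stands apart at 6970.05 and 3299 FPKM, and CDH5, CDH1 and JUP are the genes with the square to the right of the circle.

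PKP4, or p0071, is an armadillo-repeat protein of the p120 family found at cell junctions. It had 6970.05 FPKM in No-SCI against 3299 FPKM after SCI. It ranked 13 among all symbols in No-SCI and 35 after SCI, with a log2 ratio of −1.08. It made up 90.7% of the summed FPKM of the 30 members in No-SCI and 88.8% after SCI. Its level was 28.7 times that of CTNNA1, the next member, in No-SCI, and 21.9 times after SCI. Both of its values carry 7 significant digits, with the limit just given.

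Promoter sequence is shown for PKP4, the most abundant member, and for members at least 3-fold apart that have a promoter in the RefSeq set. These are the 3 members at least 3-fold lower after SCI. CDH5, 3.05-fold higher, has no promoter in that set. The sequences are the 250 bases before the gene start in GRCr8, 5′ to 3′ on the strand of the gene, while the expression values were made on rn6. Capitals mark the GC box (GGGCGG or CCGCCC) and the CCAAT box (CCAAT or ATTGG), searched on both strands and counted with overlaps.
Pkp4 (chr3:64040745-64040994, plus strand): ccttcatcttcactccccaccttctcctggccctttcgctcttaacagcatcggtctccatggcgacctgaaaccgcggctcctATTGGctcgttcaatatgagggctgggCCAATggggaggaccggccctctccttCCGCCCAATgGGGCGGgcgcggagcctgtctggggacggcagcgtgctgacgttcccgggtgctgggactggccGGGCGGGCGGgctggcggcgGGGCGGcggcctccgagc
Ctnna2 (chr4:112001352-112001601, minus strand): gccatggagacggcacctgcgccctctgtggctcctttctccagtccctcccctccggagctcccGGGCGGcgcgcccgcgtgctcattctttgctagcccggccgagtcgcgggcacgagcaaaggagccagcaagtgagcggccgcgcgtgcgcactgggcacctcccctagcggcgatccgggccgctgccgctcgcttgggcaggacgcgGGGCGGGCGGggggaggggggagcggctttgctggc
Cdhr2 (chr17:9917699-9917948, minus strand): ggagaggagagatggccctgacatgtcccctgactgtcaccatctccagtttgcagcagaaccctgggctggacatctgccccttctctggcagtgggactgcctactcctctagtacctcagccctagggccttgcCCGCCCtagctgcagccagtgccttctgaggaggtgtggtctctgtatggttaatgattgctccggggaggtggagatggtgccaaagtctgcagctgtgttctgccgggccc
Pcdh17 (chr15:66632892-66633141, plus strand): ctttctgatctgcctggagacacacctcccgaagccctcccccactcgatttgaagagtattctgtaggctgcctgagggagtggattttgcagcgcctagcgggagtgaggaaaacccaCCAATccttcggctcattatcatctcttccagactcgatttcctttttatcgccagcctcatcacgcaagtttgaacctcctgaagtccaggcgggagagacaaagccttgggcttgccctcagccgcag
Pkp4 held 5 GC boxes and 3 CCAAT boxes, Ctnna2 3 GC boxes and no CCAAT box, Cdhr2 1 GC box, and Pcdh17 1 CCAAT box. Of all 27457 promoters of this length 32.4% held a GC box and 34.3% a CCAAT box. Of the 23 members with a promoter in the RefSeq set 9 held a GC box and 10 a CCAAT box. The CpG dinucleotide occurred 30 times in Ctnna2, 23 times in Pkp4, 10 times in Pcdh17 and 3 times in Cdhr2. Its median was 10 over the members and 6 over all promoters. The letters CACCTG or CAGGTG, the E-box known from repression of E-cadherin by Snail and ZEB proteins, stood in 4 of the 23 member promoters and in 15.6% of all promoters. A match of letters is no binding site, and no factor was measured at these regions.

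Alpha-catenins differed in size of change. CTNNA2, the neuronal alpha-catenin that steadies dendritic spines, had 23.6 FPKM in No-SCI against 5.19 FPKM after SCI, 4.55-fold lower. Its log2 ratio of −2.19 was the lowest of the members and ranked 103 from the bottom of all symbols. CTNNA1, the widely expressed alpha-catenin, had 243 FPKM in No-SCI against 150.3 FPKM after SCI, a log2 ratio of −0.69. CTNNAL1, or alpha-catulin, had 17.7 and 10.4 FPKM, a log2 ratio of −0.76. All of the 3 were lower after SCI, and CTNNA2 alone of them was past 2-fold.

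Among the p120-type catenins, CTNND1, or p120 itself, had 144 FPKM in No-SCI against 58.1 FPKM after SCI, a log2 ratio of −1.31. CTNND2, the neural delta-catenin, had 77.3 and 39.998 FPKM and a log2 ratio of −0.95. JUP, or plakoglobin, a protein of desmosomes and some adherens junctions, had 57.0 FPKM in No-SCI against 68.4 FPKM after SCI. Its log2 ratio of 0.26 was the 1 positive value among the 7 catenins and plaque proteins. Beta-catenin (CTNNB1), which is outside the rule, had 222 and 150.1 FPKM, a log2 ratio of −0.56. The ratio of CTNNA1 to CTNNB1, its partner at the cadherin tail, was 1.10 in No-SCI and 1.002 after SCI.

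Of the 8 classical cadherins 6 were lower after SCI, and their log2 ratios ran from −1.41 to 1.61. CDH5, VE-cadherin, the adhesion molecule of endothelial junctions, had 3.85 FPKM in No-SCI against 11.7 FPKM after SCI. It was 3.05-fold higher, a log2 ratio of 1.61, and moved from percentile 15.9 to percentile 42.9 of all symbols. In No-SCI it was 0.884 times as abundant as CDH2, N-cadherin, and after SCI 4.27 times. At least 3-fold higher after SCI were 3.17% of all symbols.

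Endothelial markers other than CDH5 did not share 1 direction. The table holds 9 of 12 listed markers. After SCI 4 were higher and 5 lower, and their median log2 ratio was −0.21. ERG, an endothelial transcription factor, went from 20.8 to 45.5 FPKM and EGFL7, a secreted endothelial protein, from 13.1 to 28.2 FPKM, both at least 2-fold higher. CLDN5, the claudin of the blood-brain barrier, had 16.2 and 13.7 FPKM. SLCO1A4, a transporter of that barrier chosen after its values were seen, had 7.15 and 2.77 FPKM, the 1 marker at least 2-fold lower. The summed level of the list was 77.8 FPKM in No-SCI against 110.9 FPKM after SCI. The higher sum rests on ERG and EGFL7. The part of endothelial RNA in the value of CDH5 was not tested. The supernatant RNA cannot tell apart differences in the number of cells of a type, in RNA per cell and in RNA released into the fluid. This holds here and for every gene below.

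CDH1, E-cadherin, the cadherin of epithelia and of myelinating Schwann cells, had 1.11 FPKM in No-SCI against 1.93 FPKM after SCI, a log2 ratio of 0.80. Both values lie near 1, the lowest value of the table. With 1 FPKM subtracted from every value the log2 ratio of CDH1 became 3.10, and with 1 FPKM added it became 0.47. Of 10 Schwann cell and nerve root markers 7 are in the table, 6 of them higher and 3 at least 2-fold higher. The marker that was lower, SOX10, which oligodendrocytes also express, was at least 2-fold lower, with 29.5 and 11.6 FPKM. The summed level of the list was 96.1 FPKM in No-SCI against 144.9 FPKM after SCI. The part of these cells in the value of CDH1 was not tested.

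CDH20, a type II classical cadherin, was the most abundant of its class in No-SCI with 7.24 FPKM and had 2.73 FPKM after SCI, 2.65-fold lower. CDH2, the main cadherin of neurons and neural precursors, had 4.35 and 2.74 FPKM, a log2 ratio of −0.66. CDH10, another type II cadherin, had 3.08 and 1.54 FPKM, 1.996-fold lower. The order of the class thus changed, with CDH20 first in No-SCI and CDH5 first after SCI. CDH2, CDH20 and CDH11 lay within 2.71 to 2.74 FPKM after SCI.

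CDH11, a cadherin of mesenchymal cells, had 3.77 FPKM in No-SCI against 2.71 FPKM after SCI, a log2 ratio of −0.47. A list of 14 meningeal fibroblast markers has 13 in the table, and all 13 were at least 2-fold higher after SCI, with a summed level of 88.6 FPKM in No-SCI against 1135 FPKM after SCI. The part of these cells in the value of CDH11 was not tested. CDH15, M-cadherin of muscle, had 2.38 and 1.71 FPKM, a log2 ratio of −0.47. Of 10 listed skeletal muscle markers 9 are in the table, all 9 lower and 8 at least 2-fold lower. Their summed level was 404 FPKM in No-SCI against 35.01 FPKM after SCI, and their part in the value of CDH15 was not tested. CDH6 had 1.65 and 1.48 FPKM, a log2 ratio of −0.15 that centring brings to −0.04.

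The cadherins outside the classical type were both lower. CDHR2, a cadherin-related protein known from the brush border of epithelia, had 16.5 FPKM in No-SCI against 3.77 FPKM after SCI, 4.37-fold lower, with a log2 ratio of −2.13. CDH13, T-cadherin, which lacks a cytoplasmic tail and is held by a lipid anchor, had 8.83 and 4.55 FPKM, a log2 ratio of −0.96. In No-SCI CDHR2 had the highest level of all surface members. At least 3-fold lower after SCI were CDHR2, CTNNA2 and PCDH17, 3 of 30 members, against 3.27% of all symbols.

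Non-clustered protocadherins were the class with the lowest median log2 ratio, −1.57 over 3 genes. The 2 cadherins outside the classical type were close, with a median of −1.54. PCDH17, which gathers presynaptic terminals, had 15.2 FPKM in No-SCI against 4.58 FPKM after SCI, 3.32-fold lower. PCDH7 had 12.6 and 4.23 FPKM, 2.97-fold lower. PCDH10, known for its role in synapse removal and in axon growth, had 7.23 and 3.81 FPKM, a log2 ratio of −0.92. All of the 3 were lower after SCI, PCDH17 and PCDH7 past 2-fold.

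The clustered protocadherins are made from neighbouring gene arrays, and isoforms of the alpha array share their last exons. How the authors' counting divided shared reads between isoforms and between near-identical beta genes is not given in the sources used here, so single values of these 4 genes are uncertain. PCDHA4 had 14.1 FPKM in No-SCI against 7.59 FPKM after SCI, a log2 ratio of −0.90. PCDHB6L, PCDHB7 and PCDHB8 were between 1.46 and 1.58 FPKM in No-SCI and between 1.02 and 1.40 FPKM after SCI. Their log2 ratios were −0.59, −0.13 and −0.51, and none of the 4 was past 2-fold. The values of PCDHB6L and PCDHB8 after SCI are within 0.1 FPKM of the lowest value of the table.

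Each of the 4 atypical cadherins was lower after SCI. FAT1, a giant cadherin that acts on actin at cell edges, had 12.5 FPKM in No-SCI against 5.26 FPKM after SCI, a log2 ratio of −1.25. FAT3, which shapes neurites in the retina, had 4.56 and 2.80 FPKM, a log2 ratio of −0.70. CELSR2, a planar polarity receptor, had 4.40 and 2.66 FPKM, a log2 ratio of −0.73. DCHS1, a ligand of FAT cadherins, had 2.95 and 2.13 FPKM, a log2 ratio of −0.47. FAT1 was the most abundant of these genes in both groups and the 1 past 2-fold.

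The calsyntenins were lower as well. CLSTN1, which couples vesicles to the kinesin light chain, had 13.2 FPKM in No-SCI against 8.47 FPKM after SCI, a log2 ratio of −0.64. CLSTN3, a postsynaptic adhesion protein, had 5.45 and 2.13 FPKM, a log2 ratio of −1.35. Both genes were at least 1.5-fold lower, and CLSTN3 was past 2-fold.

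**Figure D3:**
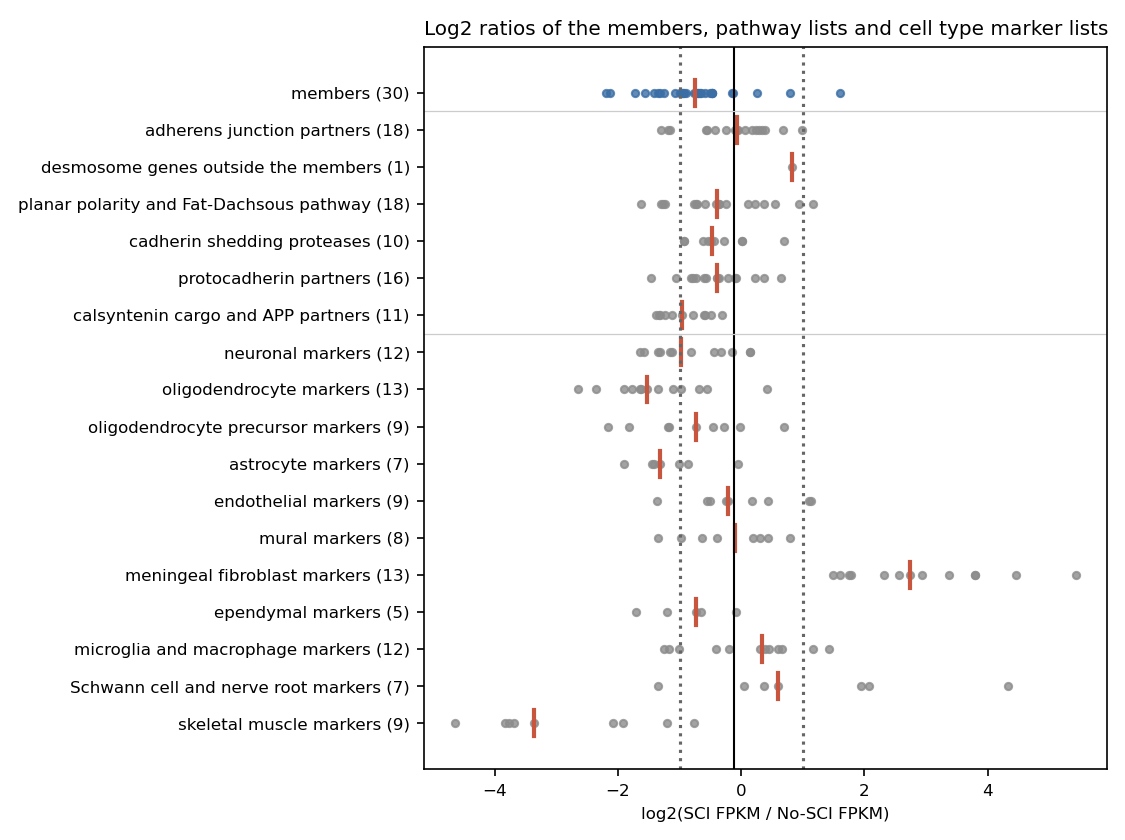
Log2 ratio of each gene (points) in the 30 members, in 6 lists of pathway partners and in 11 lists of cell type markers, with the list median as a red bar, the median of all symbols as a solid line and 2-fold as dotted lines. The number of genes in the table stands in brackets, and the meningeal fibroblast list lies wholly to the right while the skeletal muscle list lies to the left.

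The other genes of these pathways were read from lists, by count and median. The table holds 18 of 20 adherens junction partners. Of these 8 were higher and 10 lower, and their median log2 ratio of −0.07 becomes 0.05 after centring. At least 2-fold lower were 3 of them, TJP1 and, named after their values were seen, EPS8 (12.9 and 5.67 FPKM) and VCL (37.9 and 17.1 FPKM). TJP1, the junction scaffold ZO-1, had 247 FPKM in No-SCI against 100.1 FPKM after SCI, and ACTN4, an actin crosslinker, had 123 and 118 FPKM. The sole desmosome gene in the table outside the members, of 10 listed, was PKP1, with 4.37 and 7.71 FPKM.

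The planar polarity and Fat-Dachsous list had 18 of 20 genes in the table, 6 higher and 12 lower, with a median log2 ratio of −0.39. ANKRD6, or diversin, had 169 FPKM in No-SCI against 54.5 FPKM after SCI, 3.09-fold lower. DAAM1, a formin of that pathway, had 79.9 and 32.5 FPKM, and PRICKLE2 had 30.1 and 12.5 FPKM. At least 2-fold lower were these 3 and VANGL2, with 8.50 and 3.59 FPKM, and at least 2-fold higher was YAP1, with 5.63 and 12.7 FPKM. VANGL2 and YAP1 were named after their values were seen.

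Proteases that cut cadherins at the surface and in the membrane were read together with CBLL1. Of 10 listed genes all 10 are in the table, 7 lower and 3 higher, with a median log2 ratio of −0.47. None was past 2-fold in either direction, against 20% of all symbols. PSENEN, a gamma-secretase subunit, had 166 and 168.0 FPKM, APH1B, another, had 39.4 and 63.8 FPKM, and CBLL1, a ubiquitin ligase of E-cadherin, had 69.9 and 36.6 FPKM. Of 19 protocadherin partners and cluster regulators 16 are in the table, 13 lower and 3 higher, 2 of them at least 2-fold lower, with a median log2 ratio of −0.39. ABI1, a subunit of the WAVE actin complex, had 555 and 374 FPKM, and BRK1, another subunit, had 379 and 357 FPKM. The 2 past 2-fold, named after their values were seen, were CYFIP2, with 11.3 and 4.09 FPKM, and the cohesin subunit STAG2, with 29.6 and 14.2 FPKM.

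The partners of calsyntenins had the lowest median of the pathway lists. Of 12 listed genes 11 are in the table, all 11 were lower after SCI and 5 at least 2-fold lower, and the median log2 ratio was −0.97. KLC1, the kinesin light chain that CLSTN1 binds, had 3922 FPKM in No-SCI against 3151 FPKM after SCI, a log2 ratio of −0.32. APBB1, an adaptor of the amyloid precursor protein, had 558 and 225 FPKM, and APP itself had 512 and 262 FPKM. The 5 past 2-fold were APBB1 and, named after their values were seen, KLC2, KIF5A, APBA2 and APLP2. The transcripts of KLC1 were thus nearer their No-SCI level after SCI than those of CLSTN1 and CLSTN3.

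Several members are typical of neurons or glia, and markers of neurons, astrocytes and the oligodendrocyte lineage were mostly lower after SCI. Of 14 listed neuronal markers 12 are in the table, 10 of them lower and 6 at least 2-fold lower. Their summed level was 4036 FPKM in No-SCI against 2597 FPKM after SCI, and their median log2 ratio was −0.97. Of 12 listed astrocyte markers 7 are in the table, all 7 lower and 5 at least 2-fold lower. Their summed level was 14032 FPKM in No-SCI against 8922 FPKM after SCI. GFAP, AQP4, S100B, SLC1A3 and ALDOC were not analysed here. Of 14 listed oligodendrocyte markers 13 are in the table, 12 of them lower and 9 at least 2-fold lower. Their summed level was 88721 FPKM in No-SCI against 48629 FPKM after SCI. Of 10 listed oligodendrocyte precursor markers 9 are in the table, 8 of them lower and 4 at least 2-fold lower. Their summed level was 128.6 and 65.3 FPKM. The neuronal, astrocyte and oligodendrocyte sums each rest on few genes. MAP2 had 2140 and 860 FPKM, and GAP43, which was higher, had 1275 and 1406 FPKM. NDRG2 had 8001 and 3228 FPKM, and GLUL 5858 and 5624 FPKM. MOBP had 44200 and 27648 FPKM, and BCAS1 36068.5 and 18311 FPKM. The median of the members, −0.74, lay between that of the neuronal list and that of all symbols and beside that of the precursor list, −0.74. The part of these cells in the values of CTNNA2, CDH10, CDH20, the protocadherins and the other members was not tested.

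Further lists were ependymal markers (5 of 10 in the table, 5 lower, median log2 ratio −0.74, summed level 24.2 and 14.4 FPKM) and mural markers (8 of 10, 4 lower, −0.10, 447 and 565 FPKM). The mural sum rests on TAGLN, with 383 and 517 FPKM, and the other 7 mural markers summed to 64.2 FPKM in No-SCI against 47.5 FPKM after SCI. All 12 microglia and macrophage markers are in the table, 7 higher and 5 lower, with a median log2 ratio of 0.34 and a summed level of 1261 and 1448 FPKM. At least 2-fold lower were CSF1R, CX3CR1 and P2RY12, with log2 ratios of −1.17, −1.25 and −1.0008, and at least 2-fold higher were C1QC and CD68, with 1.16 and 1.43, all 5 named after their values were seen. With 1 SCI library in the labels, a difference between the 2 groups and a difference between that library and the others cannot be told apart.

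**Figure D4:**
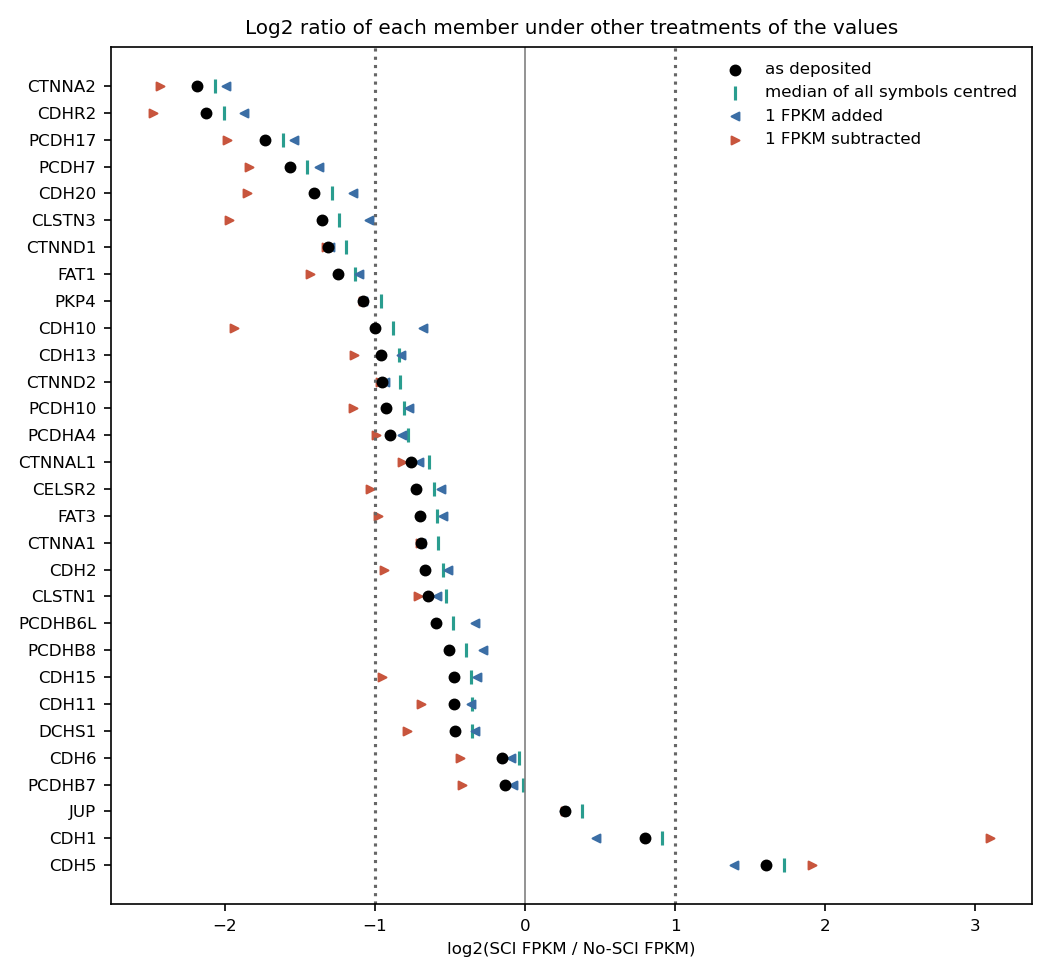
Log2 ratio of each member as deposited (black), after centring the median of all symbols (green bars), with 1 FPKM added (blue) and with 1 FPKM subtracted (red) from every value. Among members with a red point, those at low levels have wide spans, above all CDH1 and CDH10. PCDHB6L and PCDHB8 have no red point, since 0.045 and 0.024 FPKM were left after SCI, not above 0.1. CDH1 had 0.108 FPKM left in No-SCI, just above 0.1. A size of at least 1 under each of these is found in 9 members, namely CTNNA2, CDHR2, PCDH17, PCDH7, CDH20, CLSTN3, CTNND1, FAT1 and CDH5.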

How the data were processed

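RNA of the supernatant of digested rat spinal cord was measured in 3 libraries, 2 of No-SCI and 1 of SCI by the labels. Reads were downsampled by the authors to the smallest library and aligned to rn6 with STAR 2.5.4b, and the submitters' processing notes name Cuffdiff 1.3.0. The deposited FPKM values are the authors' estimates, 1 per group and gene, scaled to transcript length and mapped reads. The methods also speak of upper quartile normalization. The upper quartiles of the deposited FPKM values over the 12758 symbols differ by 0.10 (log2, No-SCI over SCI). At which step and on which values that normalization acted cannot be read from this difference. Columns with the authors' own fold change, p-value, q-value and call of significance were not used. No measurement column was left without a group.

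For the 13 symbols listed more than once the entry with the larger mean was kept. The log2 ratio, percentiles and counts past 2-fold were computed with Python 3.11.15, numpy 2.4.6 and pandas 2.3.3, and figures with matplotlib 3.10.9. The fold and count steps were tested on simulated data. Every member is named. Of 17 other lists, genes among the 3 highest in No-SCI or at least 3-fold apart may be named. Members and lists were chosen with earlier results of these data known. All 30 symbols matched RefSeq (GRCr8), which was used for names, gene order and promoters. Libraries were of equal depth after downsampling, but the counts behind each value are not in the table used here. The alternatives were 3 scalings, pseudocounts of 1 and 0.1 FPKM, 1 FPKM subtracted (keeping values above 0.1), a mean of at least 5 FPKM, folds of 1.5 and 3, and summed entries.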

Additional observations from a re-analysis of the deposited data

How the results depend on the processing

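Of the members' log2 ratios under the 8 other treatments of the values, 224 in all, none changed sign, and 208 stayed within 1.5 times the deposited value. The other 16 belong to CDH1, CDH6, CDH10, CDH15, DCHS1 and the 3 PCDHB genes. The count of members at least 2-fold lower, 9, was between 7 and 13 under these treatments. After 1 FPKM was subtracted it was 13 of 28 members, against 16.0% of the symbols kept. At a mean of at least 5 FPKM it was 7 of 16 members, against 12.1% of the symbols kept. A fold of 1.5 gave 21 lower and 2 higher members, against 26.3% and 16.9% of all symbols. A fold of 3 gave 3 lower, against 3.27% of all symbols. Subtracting 1 FPKM gave 2 higher, CDH5 and CDH1, against 10.3% of the symbols kept. The median log2 ratio of the members ran from −0.99 to −0.63. That of all symbols was −0.013 with equal upper quartiles, −0.072 with equal totals and 0 by construction after centring. Centring also brought the medians of the adherens junction, mural and endothelial lists to 0.0495, 0.0124 and −0.10. With 1 value per group no replicate could be left out. No paired analysis was possible because the labels of the groups share no replicate number and the table gives no value per library. The table holds no counts, so no limit from depth could be computed for a gene.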

Other observations

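Some members are neighbours in the RefSeq gene order of GRCr8. Cdh5 and Cdh11 follow each other on chromosome 19 with 0 coding genes between them. Their FPKM values in No-SCI were close, 3.85 and 3.77, while after SCI they were 11.7 and 2.71. Cdh6 and Cdh10, on chromosome 2 with 5 coding genes between them, were 1.11-fold and 1.996-fold lower after SCI. Pcdhb7 and Pcdhb8 are adjacent on chromosome 18, with log2 ratios of −0.13 and −0.51 and the limits on shared reads given above.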
